A study of Mus musculus with 12 samples.

Results

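Liver RNA of 12 mice was examined for 8 genes of fatty acid oxidation and of the response to PPAR-alpha, out of 47729 genes counted in each mouse. The 8 were taken as a named list, Cpt1a, Hadha, Ehhadh, Cyp4a10, Cyp4a14, Acot1, Acadm and Pdk4, without a threshold on any measured value, and all 8 were found and tested. The mice were male C57BL/6 and fell into 3 groups of 4. The STAM groups had been given streptozotocin, a toxin of insulin-producing cells, at 2 days of age and a high-fat diet from week 4, and the STAM_treated mice received I-BET151, a blocker of the BET bromodomain proteins, at 10 mg/kg daily by mouth from week 6 to week 9. STAM_vehicle mice carried the same streptozotocin and diet without the compound, and Naive_vehicle mice had neither. Both vehicle groups were dosed with vehicle over the same weeks, and all mice were taken at 9 weeks of age. According to the study's methods I-BET151 was suspended in hydroxypropyl methylcellulose with the detergent Tween, whereas the vehicle control was methylcellulose, so the compound and its carrier cannot be told apart. The STAM model couples low insulin with a fatty diet, so streptozotocin and diet cannot be told apart either.

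PPAR-alpha is a nuclear receptor of hepatocytes that is activated by fatty acids and pairs with RXR on DNA. In fasting and on fatty diets it raises the genes that burn fatty acids. Long chains enter mitochondria through the carnitine shuttle, which begins with CPT1A, and are shortened there by acyl-CoA dehydrogenases such as ACADM and by the trifunctional protein, of which HADHA is the alpha subunit. EHHADH carries out the middle steps of the same cycle in peroxisomes. CYP4A10 and CYP4A14 oxidize the far end of the chain in the endoplasmic reticulum. ACOT1 splits acyl-CoA in the cytosol, and PDK4 slows the use of glucose by phosphorylating pyruvate dehydrogenase.

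The receptor pair binds a direct repeat of the core AGGTCA with 1 base between the copies, known as DR1. The RefSeq windows of 250 bases before the gene start (GRCm38.p6) held 6 of the 8 genes, Cyp4a10 and Cyp4a14 being the other two. Both strands were searched, and no window of the 6 held the motif with fewer than 3 mismatches of its 12 fixed bases. Acadm had a match with 3 mismatches that includes 1 intact core, and 21.3% of all 32851 windows had a match at least that close. The other 5 genes had 4 mismatches, as had 74.5% of windows at that limit or closer. Of all windows, 14% held an intact core, and that of Cpt1a was among them. The stretches around the closest matches of Cpt1a and Hadha overlapped these genes as positioned below, which start elsewhere than in RefSeq. The 3 stretches shown are the closest match, that of Acadm at chr3:153944856-153944893 on the minus strand, and those of the genes with the largest changes here, Ehhadh at chr16:21787871-21787931 on the minus strand and Acot1 at chr12:84009385-84009445 on the plus strand. Each is written 5′ to 3′ on the strand of its gene, with the 13 bases aligned to DR1 in capitals; in Acadm the repeat runs on the opposite strand.
Acadm: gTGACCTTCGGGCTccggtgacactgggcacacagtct
Ehhadh: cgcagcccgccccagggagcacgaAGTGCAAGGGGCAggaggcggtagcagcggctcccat
Acot1: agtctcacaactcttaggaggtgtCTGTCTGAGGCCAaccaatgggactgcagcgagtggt
The absence of a closer match says only that these letters are not in these windows.

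Total counts per mouse lay between 34711229 and 53365596. Levels are in CPM, the count of a gene relative to its library after edgeR's TMM correction, and the lowest count behind any value of the 8 genes was 320, for Pdk4. STAM_treated mouse 3 stood apart. The factors by which TMM scaled the libraries were 0.770 to 1.11 in the remaining 11 mice and 1.61 in mouse 3. Its 10 most counted genes held 7.95% of the counts against 13.5% to 18.0%, and its mitochondrially encoded genes held 2.71% against 4.51% to 7.30%. Its nuclear RNAs Malat1 and Neat1 were at 776 CPM and 3973 CPM, above every other mouse. The study left out 1 I-BET151 sample, which it does not name, because of low gene counts. Mouse 3 had the lowest total of counts, 34711229, and treated mouse 2 the next lowest, 35171038. By genes with any count, mouse 3 was the highest of the treated mice at 24304 and mouse 2 the lowest at 22293. These values do not settle which sample was left out. All 4 were therefore used, and results are given with and without mouse 3, and some without mouse 2.

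Markers of hepatocytes were present in every mouse, as the label of liver asks. The summed level of 7 hepatocyte markers, Alb the largest among them, ran from 108622 to 132383 CPM in Naive_vehicle and from 57442 to 76865 CPM in STAM_vehicle. In STAM_treated it was 74284 to 91677 CPM without mouse 3, and 21469 CPM in mouse 3. The mean of the sum was lower by 43.0% in STAM_vehicle than in Naive_vehicle, and 4 of the 7 markers did not overlap between these groups. The marker sum of Kupffer cells, the resident macrophages, was 143 to 203 CPM in Naive_vehicle and 237 to 455 CPM in STAM_vehicle, and that of recruited macrophages and monocytes was 30 to 56.9 CPM against 55.8 to 87.9 CPM. The adipocyte markers summed to 0.0863 to 0.349 CPM in Naive_vehicle and 0.99 to 8.44 CPM in STAM_vehicle, the latter nearly all Cfd. Lep, another of them, was at 0 in every mouse. In bulk tissue, fewer hepatocytes and less of an RNA per hepatocyte cannot be told apart, and the part of these shifts in the results that follow was not tested.

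Scaled for transcript length, the 8 genes spanned a wide range of levels in healthy liver. Cyp4a14 had a mean RPKM (CPM divided by exon length in kilobases) of 3525 ± 399 (SD, n = 4) in Naive_vehicle, which ranked 26 among 16773 tested genes with a known length. Cyp4a10 followed at 3129 ± 376 RPKM and rank 31, and the ranges of these neighbours overlapped. Ehhadh stood at 1052 ± 322 RPKM, Acadm at 201 ± 18.2, Cpt1a at 144 ± 21.1, Hadha at 94.5 ± 11.7 and Acot1 at 44.1 ± 10.8 RPKM. Pdk4 was the lowest by far, at 7.45 ± 3.82 RPKM and rank 4177. From Cyp4a10 down, no neighbours in this order overlapped in their RPKM in Naive_vehicle. The order by mean RPKM was the same in STAM_vehicle and STAM_treated. In STAM_vehicle, Acot1 and Pdk4 overlapped (12.2 to 18.6 RPKM against 3.95 to 12.5 RPKM), and in STAM_treated, Acadm overlapped Cpt1a, Cpt1a overlapped Hadha and Hadha overlapped Acot1. Cyp4a14 and Cyp4a10 overlapped in all 3 groups. Together the 8 genes took 1.69% to 2.0% of all counts in Naive_vehicle, 1.08% to 1.37% in STAM_vehicle and 1.19% to 2.12% in STAM_treated.

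In STAM_vehicle liver the peroxisomal enzyme Ehhadh and the thioesterase Acot1 fell relative to Naive_vehicle, and 7 of the 8 genes, all except Pdk4, were lower in every STAM_vehicle mouse than in any Naive_vehicle mouse. Of all 16823 genes tested, 12.2% were lower without overlap in this way. A gene was called at an edgeR adjusted p of at most 0.05. By that rule 2 of the 8 genes fell and none rose, beside 1.38% of all genes that fell; 7 of the 8 had an unadjusted p under 0.05, as had 3749 of all 16823 genes. STAM_treated mouse 3 is in neither group, but the spread, the filter and the library scaling were set over all 3 groups. Without it 7 of the 8 fell, beside 10.3% of the 16967 genes then tested. In a fit of these 2 groups alone the count was again 7, beside 11.1% of all genes. DESeq2 on all 12 mice called 5 of the 8, beside 2.67% of genes.

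Cpt1a encodes the gatekeeper of the carnitine shuttle (chr19:3322334-3385733, plus strand, protein coding). Its CPM was 1014, 1228, 1251 and 923 in the Naive_vehicle mice, 715, 687, 833 and 810 in the STAM_vehicle mice and 765, 849, 552 and 725 in the STAM_treated mice. Both STAM groups lay wholly below the Naive_vehicle mice. STAM_vehicle against Naive_vehicle gave a log2 fold change of -0.54 ± 0.19 (SE, edgeR adjusted p = 0.106), and -0.56 without STAM_treated mouse 3 (edgeR adjusted p = 0.0113).

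Acadm, the medium-chain acyl-CoA dehydrogenase (chr3:153922357-153944632, minus strand, protein coding), read 733, 879, 812 and 730 CPM in Naive_vehicle, 587, 439, 522 and 498 CPM in STAM_vehicle and 505, 737, 316 and 483 CPM in STAM_treated. The Naive_vehicle mice were above every STAM_vehicle mouse, and 1 STAM_treated mouse reached them. The log2 fold change in STAM_vehicle was -0.62 ± 0.23 (SE, edgeR adjusted p = 0.115), and -0.65 without STAM_treated mouse 3 (edgeR adjusted p = 0.0103).

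Hadha (chr5:30118304-30155162, minus strand, protein coding) had 740, 918, 908 and 734 CPM in Naive_vehicle, 526, 460, 587 and 571 CPM in STAM_vehicle and 609, 692, 299 and 509 CPM in STAM_treated. No STAM mouse of either group reached a Naive_vehicle mouse. Hadha overlaps Garem2, which lies on the opposite strand. Whether the counting used strand is not given in the sources used here. Its log2 fold change in STAM_vehicle was -0.62 ± 0.23 (SE, edgeR adjusted p = 0.127), and -0.65 without STAM_treated mouse 3 (edgeR adjusted p = 0.00675). These mitochondrial genes had means that were lower by 31.1% for Cpt1a, 35.1% for Acadm and 35.0% for Hadha.

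Ehhadh, the bifunctional enzyme of peroxisomes (chr16:21761287-21787807, minus strand, protein coding), showed the largest log2 fold change of the 8. It read 2270, 3431, 4357 and 2480 CPM in Naive_vehicle, 804, 521, 981 and 838 CPM in STAM_vehicle and 1610, 2288, 610 and 1199 CPM in STAM_treated. The highest STAM_vehicle mouse, at 981 CPM, was far below the lowest Naive_vehicle mouse, at 2270 CPM. Ehhadh fell by 2.0 ± 0.37 on the log2 scale in STAM_vehicle (SE, edgeR adjusted p = 0.00664), and its mean fell by 74.9%. It remained called in each of the 12 fits that left out 1 mouse.

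Acot1, the cytosolic thioesterase (chr12:84009490-84018371, plus strand, protein coding), read 161, 222, 186 and 122 CPM in Naive_vehicle, 57.5, 47.8, 72.9 and 63.4 CPM in STAM_vehicle and 77.4, 157, 80.5 and 77.0 CPM in STAM_treated. STAM_vehicle lay below both of the other groups without overlap. The fall in STAM_vehicle was 1.52 ± 0.26 on the log2 scale (SE, edgeR adjusted p = 0.00355), with a mean that fell by 65.1%, and was called in each of the 12 fits that left out 1 mouse. Of the 101-base windows of Acot1 transcripts, 12.2% also occur in Acot2, Acot3, Acot4, Acot5 or Acot6, and how the counting treated read pairs there was not tested.

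Cyp4a10 and Cyp4a14, the omega-hydroxylases, lie side by side on chromosome 4 (chr4:115518264-115533649, plus strand, and chr4:115486200-115496142, minus strand, both protein coding). Cyp4a10 read 6055, 6309, 7776 and 6253 CPM in Naive_vehicle, 4580, 3703, 3053 and 4182 CPM in STAM_vehicle and 3831, 7695, 2186 and 3999 CPM in STAM_treated. Cyp4a14 read 8606, 10043, 10035 and 7986 CPM in Naive_vehicle, 5934, 4516, 4126 and 5130 CPM in STAM_vehicle and 5476, 9993, 3351 and 5980 CPM in STAM_treated. For both genes the STAM_vehicle mice lay below the Naive_vehicle mice without overlap, and STAM_treated mouse 2 stood among the Naive_vehicle mice. The log2 fold change in STAM_vehicle was -0.77 ± 0.34 for Cyp4a10 (SE, edgeR adjusted p = 0.201) and -0.90 ± 0.32 for Cyp4a14 (SE, edgeR adjusted p = 0.112). Without STAM_treated mouse 3 the edgeR adjusted p was 0.0281 for Cyp4a10 and 0.0103 for Cyp4a14. The ratio of Cyp4a10 to Cyp4a14 in CPM overlapped between all groups, at 0.628 to 0.783 in Naive_vehicle, 0.740 to 0.820 in STAM_vehicle and 0.652 to 0.770 in STAM_treated. Cyp4a10 shares 12% of its 101-base windows with Cyp4a31 or Cyp4a32, and Cyp4a14 shares none with another gene.

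Pdk4 (chr6:5483351-5496309, minus strand, protein coding) did not follow the other 7 genes. It read 21.6, 37.0, 36.9 and 9.20 CPM in Naive_vehicle, 22.6, 13.9, 43.9 and 15.9 CPM in STAM_vehicle and 39.6, 41.4, 34.0 and 67.3 CPM in STAM_treated. The Naive_vehicle and STAM_vehicle mice overlapped throughout, with a log2 fold change of -0.12 ± 0.42 (SE, edgeR adjusted p = 0.899) and coefficients of variation of 51.3% and 57.1%.

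**Figure D1:**
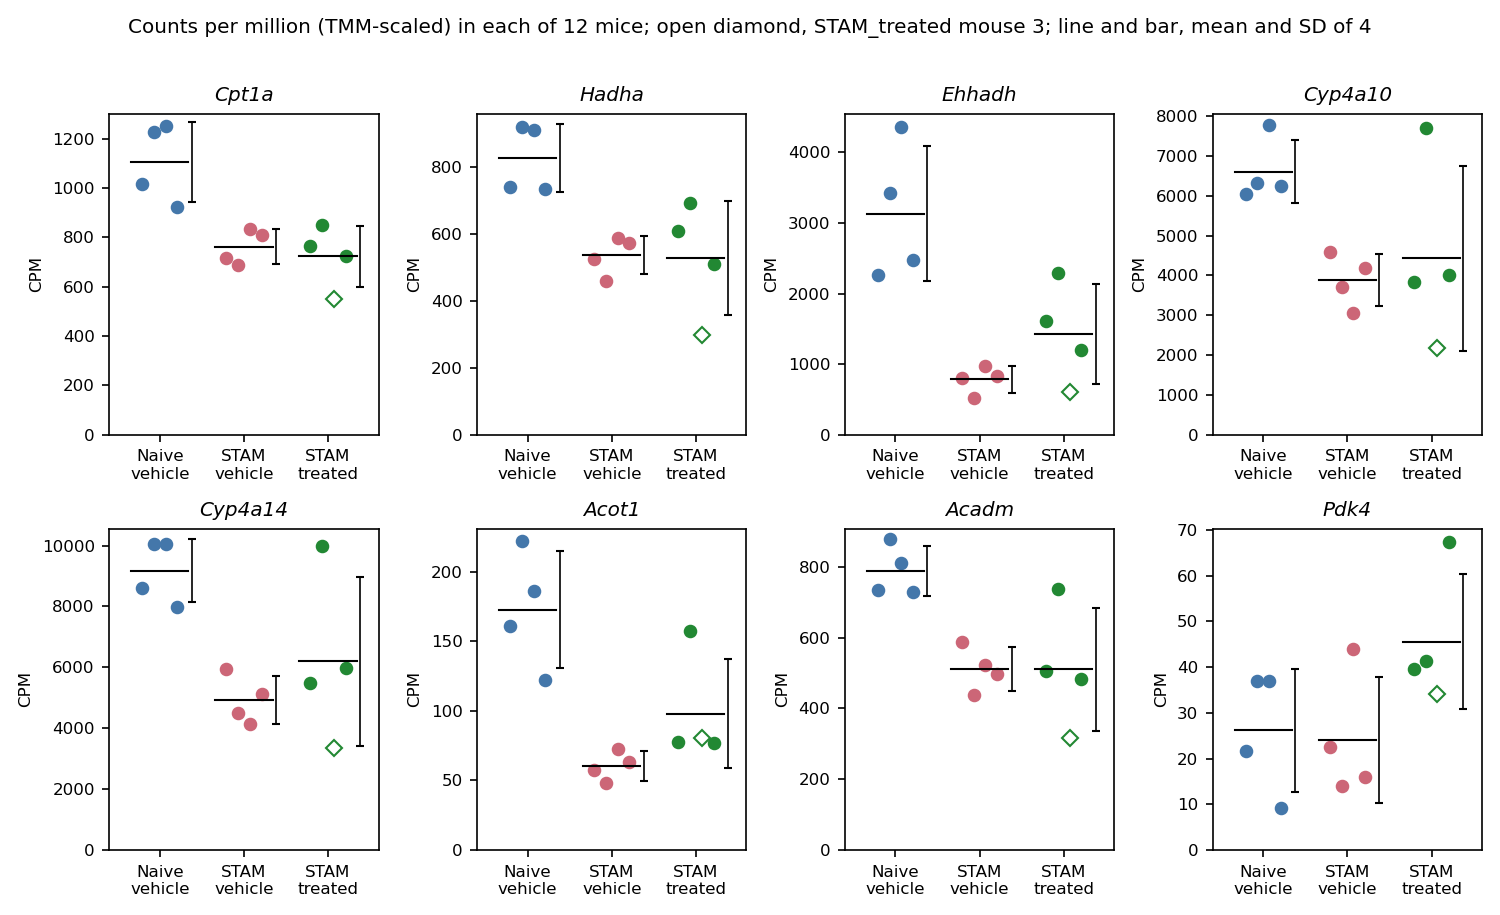
CPM (vertical axis, from 0) of each of the 8 genes in each of 12 mice, by group. Points are mice, the open diamond is STAM_treated mouse 3, and the line and bar are the mean and SD of 4 mice; 7 genes are lower in every STAM_vehicle mouse than in any Naive_vehicle mouse, and Pdk4 overlaps.

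The size of the difference varied among the genes. The median log2 fold change of the 8 was -0.70 in STAM_vehicle against Naive_vehicle, beside 0.0089 over all genes tested. The 7 hepatocyte markers had a median of -0.62 in the same comparison, close to the values of Cpt1a, Acadm and Hadha, and none of them was called with 12 mice (4 of 7 without STAM_treated mouse 3). Whether the lower level of hepatocyte RNA had a part in the values of the 8 genes was not tested.

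A measure that does not rest on the library scale is the level of each gene relative to Hadha in the same mouse, a comparison chosen after the values were seen. Ehhadh stood at 3.07 to 4.80 times the CPM of Hadha in Naive_vehicle and at 1.13 to 1.67 times in STAM_vehicle. Acot1 stood at 0.166 to 0.242 against 0.104 to 0.124. Both were therefore lower in STAM_vehicle without overlap even relative to Hadha, as were 0.333% of the other genes tested. The ratios of Cpt1a, Acadm, Cyp4a10, Cyp4a14 and Pdk4 to Hadha overlapped between these groups, and those of Acadm were nearly equal on average, at 0.960 ± 0.0468 and 0.958 ± 0.111 (SD, n = 4).

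I-BET151-treated and vehicle-treated STAM livers were compared next, to ask whether the compound moved these genes, with the STAM_vehicle mice of the previous comparison now as the controls. None of the 8 was called at the threshold for this comparison, an edgeR adjusted p of at most 0.1, at which 0.0951% of all genes rose and 0.256% fell. With 12 mice, 3 of the 8 (Ehhadh, Acot1 and Pdk4) had an unadjusted p under 0.05, all with a positive log2 fold change, as had 1460 of all 16823 genes in either direction, and DESeq2 on 12 mice called none. The means of 5 genes were above STAM_vehicle and those of Cpt1a, Hadha and Acadm were slightly below. The median log2 fold change of the 8 was 0.26, beside 0.024 over all genes tested. The 7 hepatocyte markers had a median of -0.011, or 0.23 without mouse 3, and none of them was called.

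Ehhadh averaged 786 ± 193 CPM in STAM_vehicle and 1427 ± 705 CPM in STAM_treated (SD, n = 4 each), a log2 fold change of 0.86 ± 0.36 (SE, edgeR adjusted p = 0.521). Of the 4 treated mice, 3 were above every STAM_vehicle mouse and mouse 3 was not. Without mouse 3 the treated mean was 1699 ± 550 CPM (SD, n = 3) and Ehhadh rose by a log2 fold change of 1.12 (edgeR adjusted p = 0.0879). It was the 1 member of the 8 that rose in that fit, in which 0.914% of all genes rose and 1.46% fell. In a fit of these 2 groups alone without mouse 3 the log2 fold change was 1.11 and the call was lost (edgeR adjusted p = 0.11). Without mouse 2 the log2 fold change was 0.54, the lowest of the 12 fits that left out 1 mouse. Over these 12 fits, the edgeR adjusted p ranged from 0.0879, in the fit without mouse 3, to 0.884. Ehhadh was called in that 1 fit alone.

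Acot1 averaged 60.4 ± 10.5 CPM in STAM_vehicle and 98.0 ± 39.4 CPM in STAM_treated (SD, n = 4 each), with a log2 fold change of 0.70 ± 0.25 (SE, edgeR adjusted p = 0.415). All 4 treated mice were above every STAM_vehicle mouse, the 1 case of the 8, beside 2.41% of all genes. The gap was narrow for 3 treated mice, which read 77.0 to 80.5 CPM against a highest STAM_vehicle value of 72.9 CPM, and wide for mouse 2 at 157 CPM. Without mouse 2 the log2 fold change was 0.37. With mouse 3 left out, Ehhadh and Acot1 both lay above STAM_vehicle without overlap, beside 7.47% of all genes.

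Pdk4 had the largest log2 fold change of the 8 in this comparison, 0.92 ± 0.42 (SE, edgeR adjusted p = 0.569), from 24.1 ± 13.8 to 45.6 ± 14.8 CPM (SD, n = 4 each). A STAM_vehicle mouse at 43.9 CPM was above 3 of the 4 treated mice, so the groups overlapped. Cyp4a14 and Cyp4a10 differed by 0.33 ± 0.32 and 0.19 ± 0.34 on the log2 scale (SE, edgeR adjusted p = 0.838 and 0.931), and their treated means rested on mouse 2. The mitochondrial genes lay near 0, with log2 fold changes of -0.074 ± 0.19 for Cpt1a, -0.023 ± 0.23 for Hadha and -0.0029 ± 0.23 for Acadm (SE).

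Much of the spread among treated mice belonged to mice 2 and 3. Mouse 2 had the highest treated value for 7 of the 8 genes, was above every STAM_vehicle mouse for 7, and reached the range of Naive_vehicle or exceeded it for 6. Mouse 3 had the lowest treated value for 7 of the 8 and the lowest of all 12 mice for 5. Mice 1 and 4 were above every STAM_vehicle mouse for 3 and 4 genes, and below every STAM_vehicle mouse for none. Without mouse 3 the log2 fold changes of all 8 genes were positive, with a median of 0.49 beside 0.0042 over all genes, and DESeq2 then called 3 of them higher, Ehhadh, Acot1 and Cyp4a14 (DESeq2 adjusted p = 0.00304, 0.0519 and 0.0929), beside 4.09% of genes. With mouse 2 left out instead, 4 of the 8 genes had a negative log2 fold change against STAM_vehicle, and edgeR called none. The coefficient of variation of Cyp4a10 was 52.5% in STAM_treated against 12% in Naive_vehicle, and that of Ehhadh 49.4% against 30.6%.

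**Figure D2:**
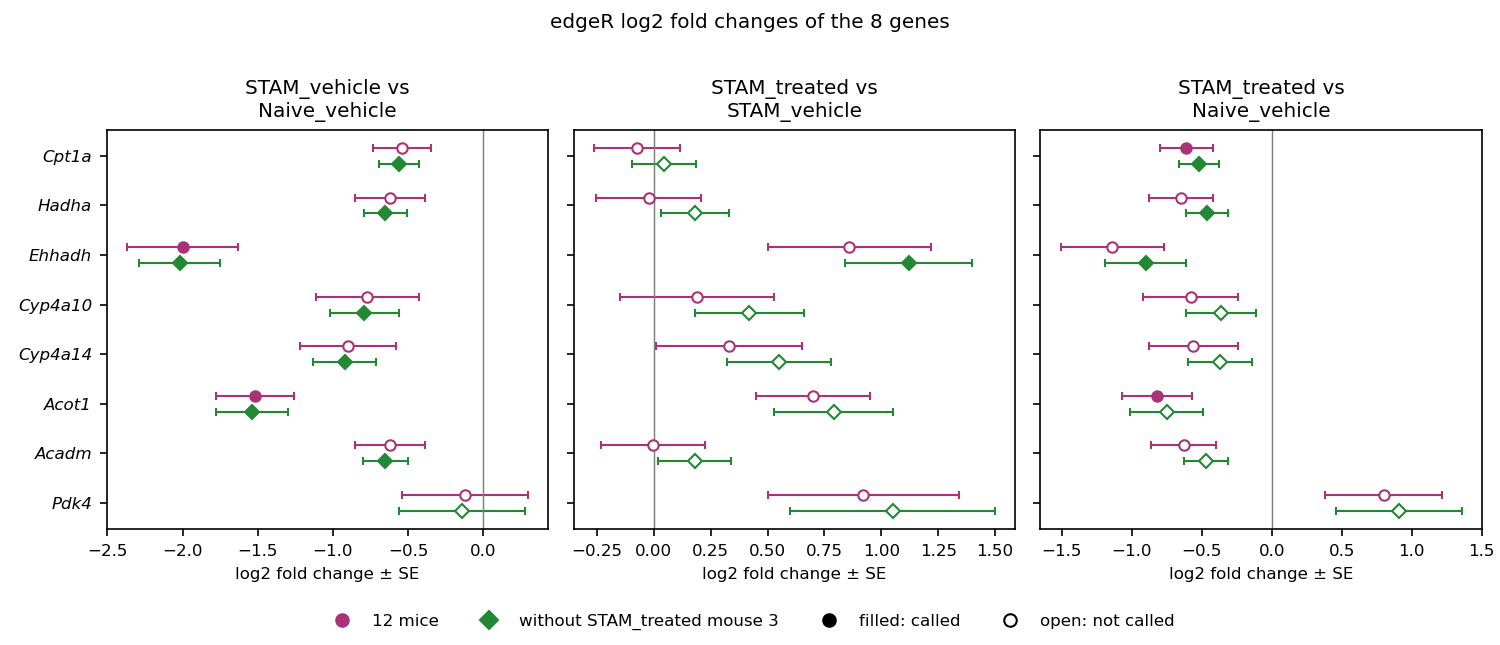
Log2 fold change ± SE (horizontal axis) of the 8 genes in the 3 comparisons, from edgeR with 12 mice (circles) and without STAM_treated mouse 3 (diamonds); filled symbols passed the threshold. Ehhadh and Acot1 lie farthest left in STAM_vehicle against Naive_vehicle, at -2.0 and -1.52 with 12 mice.

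Relative to Hadha in the same mouse, treated mouse 3 no longer lay outside the group for Ehhadh. Hadha itself was at 299 CPM in mouse 3, its lowest level in any mouse, and a low divisor raises each ratio. The ratios of Cpt1a (1.85) and Acot1 (0.270) to Hadha were higher in mouse 3 than in any other mouse. The remaining ratios of mouse 3 lay within the range of the other mice. The part of the low Hadha level in these ratios was not tested. The ratio of Ehhadh to Hadha was 2.65, 3.31, 2.04 and 2.35 in the treated mice and 1.53, 1.13, 1.67 and 1.47 in the STAM_vehicle mice, so all 4 treated mice were higher. The ratio of Acot1 to Hadha was 0.127, 0.227, 0.270 and 0.151 in treated mice, again above the 0.104 to 0.124 of STAM_vehicle. Of the other genes tested, 0.636% were higher without overlap by this ratio, and of the 7 genes set against Hadha these 2 were. For Ehhadh 3 of the 4 treated mice lay below the lowest Naive_vehicle ratio of 3.07, and for Acot1 the treated and Naive_vehicle ratios overlapped.

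**Figure D3:**
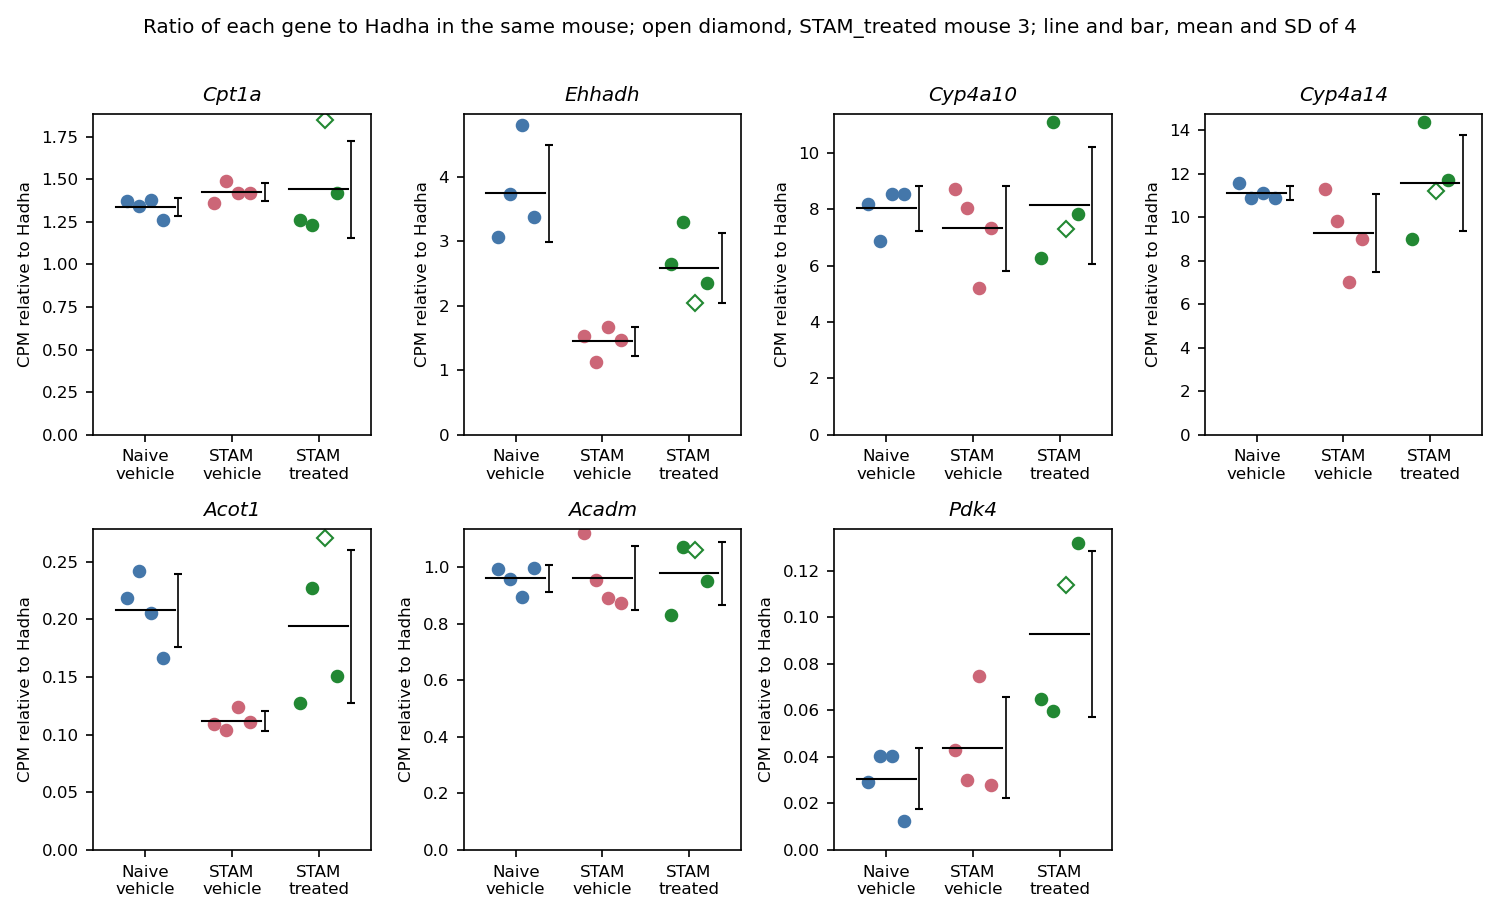
CPM of 7 genes divided by the CPM of Hadha in the same mouse (vertical axis, from 0), by group. Points are mice, the open diamond is STAM_treated mouse 3, and the line and bar are the mean and SD of 4 mice; the ratios of Ehhadh and Acot1 are lower in STAM_vehicle than in the other groups, while that of Acadm stays close to 1.

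In treated STAM livers compared with Naive_vehicle, the Naive_vehicle mice are those of the first comparison and the treated mice those of the second. Cpt1a and Acot1 fell, by 0.61 ± 0.19 and 0.82 ± 0.25 on the log2 scale (SE, edgeR adjusted p = 0.0443 and 0.0428), so that 2 of the 8 genes were called lower beside 5.25% of all genes. Cpt1a and Hadha were below every Naive_vehicle mouse in all 4 treated mice, beside 8.85% of all genes. Ehhadh had a log2 fold change of -1.14 ± 0.37 (SE) and missed the threshold of 0.05 narrowly (edgeR adjusted p = 0.0517). Acadm, Hadha, Cyp4a10 and Cyp4a14 had log2 fold changes between -0.65 and -0.56 and were not called. Pdk4 was the 1 gene with a positive value, 0.80 ± 0.42 (SE, edgeR adjusted p = 0.205). The hepatocyte markers had a median log2 fold change of -0.76 here, or -0.50 without mouse 3, and their part in these values was not tested.

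These calls moved with the treated mice in the fit. Without mouse 3, 3 of the 8 were called lower, Cpt1a, Hadha and Ehhadh (edgeR adjusted p = 0.0248, 0.0431 and 0.0441), beside 9.53% of all genes, and Acot1 was not (edgeR adjusted p = 0.0614). Without mouse 2, whose values were near those of healthy mice, 7 of the 8 were called lower, beside 7.88% of all genes. In a fit of these 2 groups alone none of the 8 was called, with 4 mice a group or without mouse 3.

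Sequencing lanes, read from the names of the deposited files, held too few mice of each group for a test within a lane. Lane 2 held 1 mouse of each group. Within it, all 8 genes were lower in the STAM_vehicle mouse than in the Naive_vehicle mouse, by -1.44 for Ehhadh to -0.33 for Cpt1a on the log2 scale. For STAM_treated against STAM_vehicle, 4 of the 8 genes were higher in lane 2 and 5 in lane 6. Ehhadh was higher in both lanes, by 0.52 and 1.00, and Acot1 by 0.28 and 0.43. In lane 7, which held treated mouse 3, 7 of the 8 were lower. For STAM_treated against Naive_vehicle, 7 of the 8 were lower in lane 2, and in lane 5, which held treated mouse 2, 3 were lower and 5 higher. With lane as a covariate none of the 8 genes was called by edgeR in any comparison, and Ehhadh and Acot1 in STAM_vehicle against Naive_vehicle had log2 fold changes of -1.0 ± 0.49 and -0.86 ± 0.34 (SE, unadjusted p = 0.0722 and 0.0348).

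Across the 12 mice, 7 of the genes varied together and Pdk4 did not. Pearson's r of log2 CPM lay between 0.74 and 0.97 (median 0.88) for the 21 pairs without Pdk4, and between -0.12 and 0.19 for the 7 pairs with it. After the group means were removed, the 21 pairs still lay between 0.54 and 0.97 (median 0.79), and between 0.32 and 0.96 without treated mouse 3. Pdk4 then had r from 0.045 to 0.62 with the others, and from -0.14 to 0.68 without treated mouse 3. With group means removed, the pairs with Pdk4 thus overlapped the other pairs in range. These values describe 12 mice that share library scaling and the group differences already given, and Cyp4a10 and Cyp4a14 are neighbours in sequence.

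**Figure D4:**
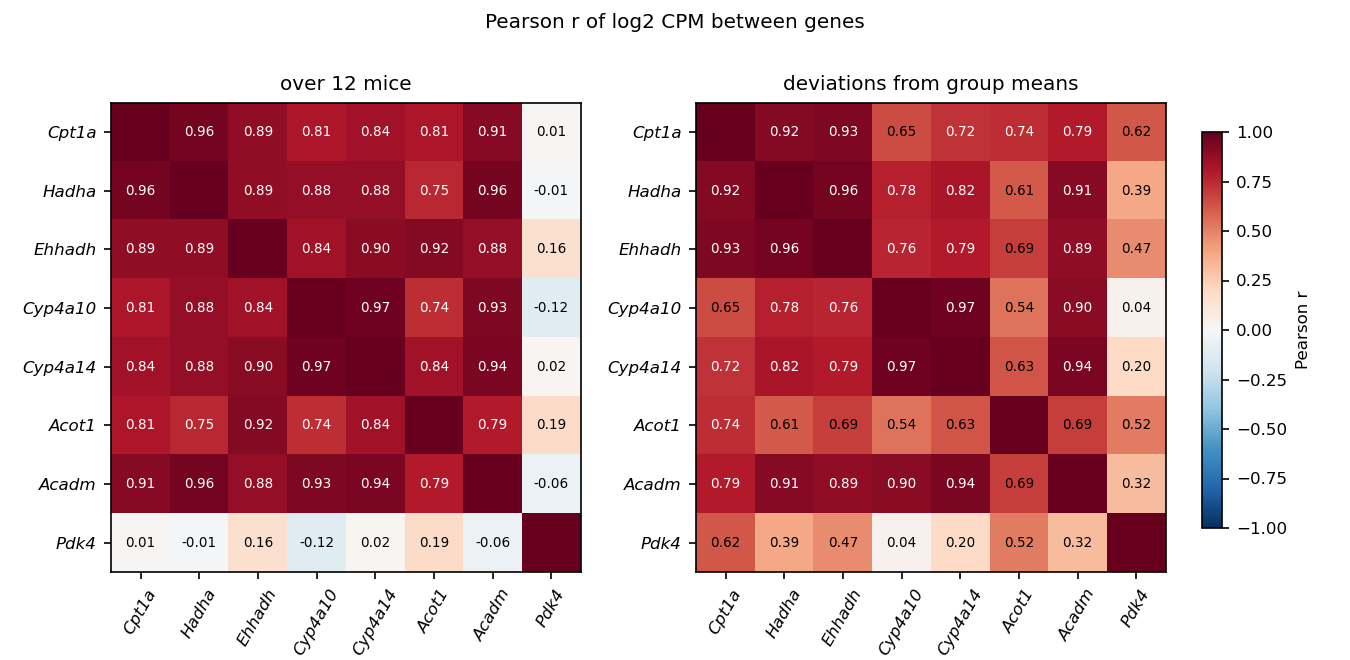
Pearson r of log2 CPM between each pair of the 8 genes (colour scale from -1 to 1), over 12 mice on the left and as deviations from group means on the right. Over 12 mice the pairs without Pdk4 run from 0.74 to 0.97 and those with Pdk4 from -0.12 to 0.19.

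Among 11759 genes with a mean log2 CPM of at least 1, the gene most like each of the 8 over the 12 mice was often another gene of fatty acid oxidation. Hadha varied most nearly with Hadhb, which encodes the beta subunit of the same protein (r = 0.993), then with Hsdl2 and Acadl (r = 0.989 each). The nearest to Cpt1a were Acsl5, Elovl2 and Mmd (r = 0.974, 0.961 and 0.960), and the nearest to Acadm were Acad11, Ech1 and Gm45769 (r = 0.973, 0.97 and 0.968). Cyp4a10 was nearest to Cyp4a14 (r = 0.973), then Gps1 and Slc25a20, and Cyp4a14 was nearest to Cyp4a10, then Retreg2 and Acadm. Ehhadh was near to Gm4952 and Zfand6 (r = 0.958 and 0.951), and Acot1 to Chrna2, Crat and Ehhadh (r = 0.931, 0.927 and 0.920). Pdk4 was nearest to Enc1, Erich1 and Sdccag8 (r = 0.902, 0.873 and 0.823), none of which is in the list of fatty acid oxidation genes used here.

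The 8 genes belong to a wider list of 130 genes of fatty acid oxidation, ordered by role, of which 129 were tested and Acsl6 was not. In STAM_vehicle against Naive_vehicle, 10 of the 129 fell and 10 rose, beside 1.38% and 5.72% of all genes. Without STAM_treated mouse 3 the numbers were 51 and 12, beside 10.3% and 12% of all genes. The median log2 fold change of the list was -0.32, beside 0.0089 over all genes. Of the 129, 97 had a negative log2 fold change, as had 8252 of all 16823 genes.

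The receptor itself, Ppara, averaged 161 ± 28.6 CPM in Naive_vehicle and 108 ± 2.02 CPM in STAM_vehicle (SD, n = 4 each), without overlap. Its log2 fold change was -0.58 ± 0.17 (SE, edgeR adjusted p = 0.0586, and 0.0154 without STAM_treated mouse 3). Pparg, the adipogenic member of the family, rose by a log2 fold change of 0.97 ± 0.26 (SE, edgeR adjusted p = 0.0368) from a low level. The partner Rxra differed by -0.14 ± 0.18 (SE) on the log2 scale. Of 12 genes of receptors and coactivators, Pparg was the 1 called with 12 mice.

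In the carnitine shuttle, 9 of 11 genes had a negative log2 fold change and 2 fell, Crat by 0.65 ± 0.15, and Slc22a5, the carnitine importer, by 0.55 ± 0.14 on the log2 scale (SE, edgeR adjusted p = 0.0209 and 0.0340). Without STAM_treated mouse 3, 8 of the 11 fell and 1, Cpt1c, rose. In mitochondrial beta-oxidation, 17 of 19 genes had a negative log2 fold change, with a median of -0.50. None was called with 12 mice, where 13 had an unadjusted p under 0.05, as had 3749 of all 16823 genes. Without STAM_treated mouse 3, 14 fell, beside 10.3% of all genes. The largest log2 fold changes of this role with 12 mice were those of Etfdh, which passes electrons to the respiratory chain, at -0.84 ± 0.25, and Acadl, at -0.70 ± 0.24 (SE, edgeR adjusted p = 0.0613 and 0.102). Among 7 genes of ketone body synthesis and transport, 1 fell and 1 rose, the transporter Slc16a6, by a log2 fold change of 1.0 ± 0.25 (SE, edgeR adjusted p = 0.0304).

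In peroxisomal oxidation, 15 of 18 genes had a negative log2 fold change, and Acaa1b, a thiolase of this pathway, fell along with Ehhadh, by 1.29 ± 0.33 on the log2 scale (SE, edgeR adjusted p = 0.0347). Without STAM_treated mouse 3, 9 of the 18 fell and 1 rose. Of 12 genes of omega-oxidation none was called with 12 mice. Of them 3 had an unadjusted p under 0.05, near the share over all genes (3749 of 16823). Without STAM_treated mouse 3, 3 fell, Cyp4a10, Cyp4a14 and Cyp4f13, beside 10.3% of all genes. Among 11 thioesterases, Acot1 fell while Acot6 and Acot9 rose, by log2 fold changes of 1.62 ± 0.30 and 0.69 ± 0.20 (SE, edgeR adjusted p = 0.00649 and 0.0483). Acot6 was far below Acot1 in level and is 1 of the genes that share windows of sequence with it.

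Of 8 genes of fatty acid activation and binding, 2 fell and none rose. Fabp1, the liver fatty acid binding protein, fell by 1.5 ± 0.33 and the activating enzyme Acsl5 by 0.83 ± 0.21 on the log2 scale (SE, edgeR adjusted p = 0.0159 and 0.0347). Of 21 other known targets of PPAR-alpha, Mgll and Retsat fell, by 0.88 ± 0.21 and 1.03 ± 0.27, and 5 rose. The 5 were the fatty acid transporter Cd36 (1.78 ± 0.31), Ucp2 (1.55 ± 0.21), Ucp3 (3.84 ± 0.84), Fabp3 (3.61 ± 0.74) and the lipid droplet protein Cidea (4.68 ± 0.60), all as log2 fold changes ± SE. Cd36 and Ucp2 averaged 208 and 114 CPM in STAM_vehicle, whereas Cidea, Fabp3 and Ucp3 were near 0 in Naive_vehicle and averaged 2.08, 1.12 and 0.319 CPM in STAM_vehicle, so their fitted fold changes depend on the prior count. The summed adipocyte markers ran from 0.0863 to 0.349 CPM in Naive_vehicle and from 0.99 to 8.44 CPM in STAM_vehicle, with Lep, another of them, at 0 in every mouse. Cfd made up nearly all of the sum, at 0.952 to 8.29 CPM in STAM_vehicle, whereas Adipoq and Plin1 stayed at or below 0.212 CPM in all 12 mice. The macrophage markers were higher as given above. Their part in these rises was not tested. Of the 10 genes of pyruvate dehydrogenase and its kinases and phosphatases, none was called with 12 mice. Of them 2 had an unadjusted p under 0.05, near the share over all genes (3749 of 16823).

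Between STAM_treated and STAM_vehicle, 1 gene of the 129 was called, beside 0.256% of all genes that fell and 0.0951% that rose. It was Ppargc1a, the coactivator that joins PPAR-alpha on its targets, which fell by 1.51 ± 0.27 on the log2 scale (SE, edgeR adjusted p = 0.0485), from 26.7 ± 9.15 to 9.39 ± 2.51 CPM (SD, n = 4 each), and did not differ between STAM_vehicle and Naive_vehicle beyond its error (log2 fold change 0.087 ± 0.26, SE). All 4 treated mice were below every STAM_vehicle mouse and every Naive_vehicle mouse. Against Naive_vehicle, 8.85% of all genes were lower without overlap, and the share against STAM_vehicle was not counted. Without mouse 3 it fell by 1.40 (edgeR adjusted p = 0.0445), and 6 more genes of the list were called, 4 of them higher, among which were Ehhadh, Cyp4a31 and Fabp4. In that fit 0.914% of all genes rose and 1.46% fell. With all 4 treated mice, no gene of the list, Ppargc1a included, was called with 2 groups alone, total counts, lane as a covariate or the replicate block. None was called in the fit without STAM_vehicle mouse 4 either. Ppara differed by -0.18 ± 0.17 (SE) on the log2 scale.

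Between STAM_treated and Naive_vehicle, 30 of the 129 fell and 12 rose, beside 5.25% and 9.88% of all genes, and the median log2 fold change of the list was -0.39 beside 0.061 over all genes. Ppara was among those that fell, by 0.76 ± 0.17 on the log2 scale (SE, edgeR adjusted p = 0.0115). Ppargc1a fell by 1.42 ± 0.27 (SE, edgeR adjusted p = 0.00468), Etfdh by 1.02 ± 0.25 and Retsat by 1.28 ± 0.27 (SE, edgeR adjusted p = 0.0178 and 0.00873). Cd36, Ucp2, Ucp3, Fabp3 and Cidea rose here too, in mice given I-BET151 and with the same Naive_vehicle mice as controls, by log2 fold changes of 1.86, 1.60, 4.49, 4.14 and 3.33.

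**Figure D5:**
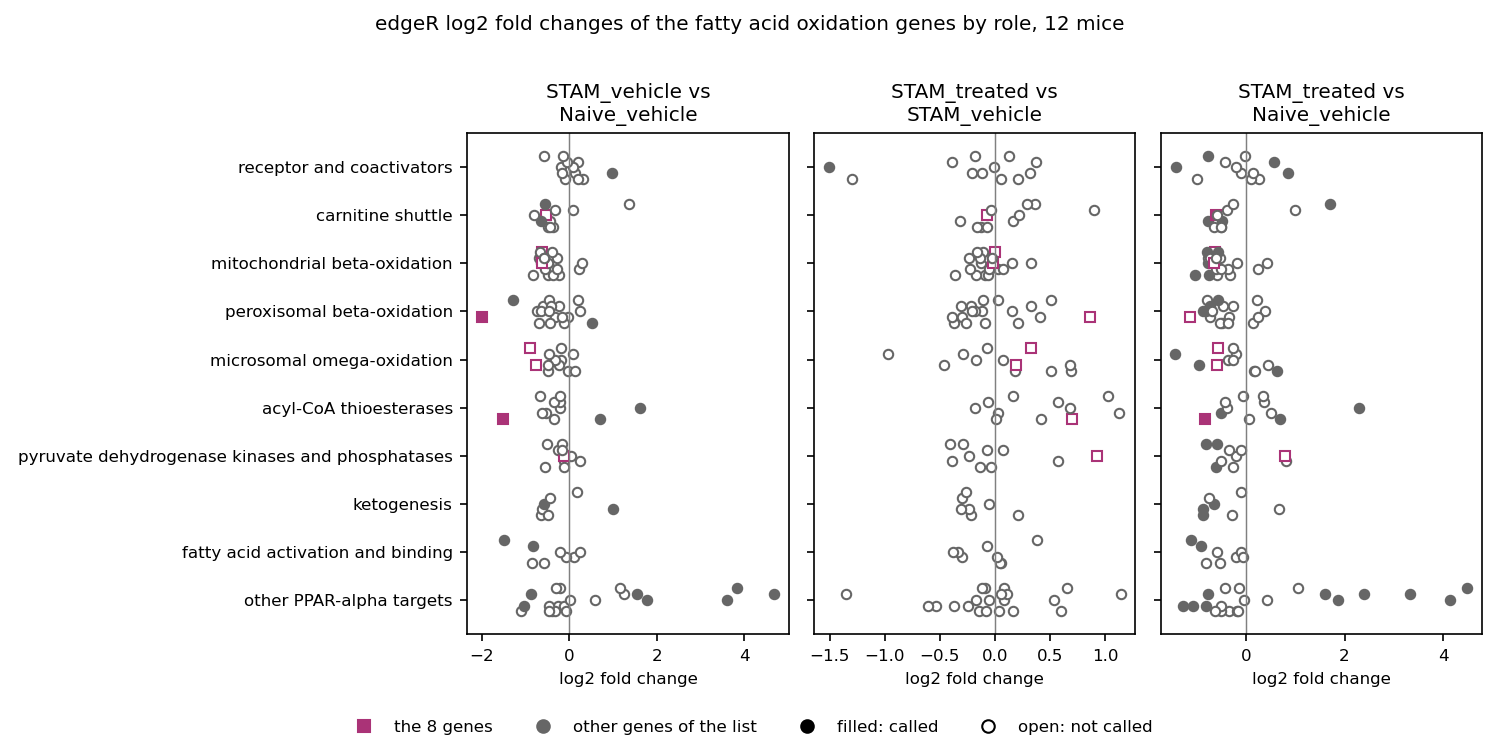
Log2 fold change (horizontal axis, edgeR, 12 mice) of the 129 tested genes of the wider list in the 3 comparisons, by role (rows). Squares are the 8 genes and circles the others, and filled symbols passed the threshold; 10 genes fell and 10 rose in STAM_vehicle against Naive_vehicle, and 1 was called in STAM_treated against STAM_vehicle.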

How the data were processed

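RNA of 12 mouse livers had been sequenced as stranded mRNA libraries, and the authors deposited 1 table of read counts per gene for each mouse. The submitters' processing notes name STAR 2.5.1b, HTSeq and mm10, and the labels also name featureCounts for the count files; the annotation release is not given in the sources used here. No value had been normalised. Groups came from the sample labels. Counts were fitted in 1 model of all 12 mice with edgeR 4.0.16 (TMM scaling, a minimum count of 10 in filterByExpr, quasi-likelihood test, Benjamini-Hochberg adjustment over 16823 genes), as 3 comparisons. A gene was called at an adjusted p of at most 0.05 against Naive_vehicle and of at most 0.1 for STAM_treated against STAM_vehicle. The SE is the log2 fold change divided by the root of F. The fit was first tested on simulated counts. CPM used TMM-scaled library sizes, RPKM the exon length of GENCODE M21 (GRCm38), and log2 CPM a prior count of 2. Totals were 34711229 to 53365596 counts per mouse, and the lowest count of the 8 genes in a mouse was 320.

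The 8 genes are named throughout. From the wider list the text names called genes, up to 4 of the largest log2 fold changes of a role, and Ppara. Likeness names up to 3 of the highest correlations for each gene. Rxra falls outside this rule and was chosen after its values were seen. Some genes are not reported here. The 8 genes, the lists and the markers were chosen with earlier results of these data known. No pair of replicates agreed within sampling noise. Replicate numbers did not pair the mice: deviations from the group means of same-numbered mice correlated at -0.093 on average, against 0.031 for other pairs. Alternatives were DESeq2 1.42.0, limma 3.58.1 voom with a weight for each sample (voom below), other scalings and no filter. Others were fits of 2 groups, a replicate block, lane as a covariate and each mouse left out. Added after the data were seen were ratios to Hadha, overlap without STAM_treated mouse 3, and the block and 2-group fits without that mouse.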

Additional observations from a re-analysis of the deposited data

Results flagged for a closer look

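A Dixon test on the 8 genes in each of the 3 groups, 24 groups of 4 mice in all, marked 2 in which 1 mouse lay far from the other 3, and chance marks about 1 in 20 groups. For Cyp4a10 in Naive_vehicle, mouse 3 was the highest at 7776 CPM while the others read 6055 to 6309 CPM, so that its gap to the next mouse was 0.852 of the range. For Acot1 in STAM_treated, mouse 2 was the highest at 157 CPM while the others read 77.0 to 80.5 CPM, a gap of 0.956 of the range. A cause was not tested for either.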

How the results depend on the processing

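Of the 8 genes, Ehhadh and Acot1 in STAM_vehicle against Naive_vehicle kept their direction under every alternative run and lost their call only with lane as a covariate.

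For STAM_vehicle against Naive_vehicle, 2 of the 8 genes were called. The number was 5 with DESeq2, 7 with DESeq2 without STAM_treated mouse 3, 7 with sample-weighted voom and 7 with 2 groups alone. It was 0 with lane, and 2 to 7 with a mouse left out. Calls over all genes also rose with the settings that called more of the 8, as the counts below show. Genes that fell made up 1.38% of all genes with edgeR on all mice, 2.67% with DESeq2 and 11.1% with 2 groups alone. For STAM_treated against STAM_vehicle none was called, and 3 with DESeq2 without STAM_treated mouse 3, 1 with voom, and 0 to 1 with a mouse left out. For STAM_treated against Naive_vehicle 2 were called, and 5 with DESeq2 with or without STAM_treated mouse 3, 7 with voom, 0 with upper-quartile scaling, 1 with total counts, 0 with 2 groups (also without STAM_treated mouse 3), 0 with lane, and 0 to 7 with a mouse left out.

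Of the wider list, 20 genes were called in STAM_vehicle against Naive_vehicle, and 42 with DESeq2, 66 with DESeq2 without STAM_treated mouse 3, 77 with voom, 70 with 2 groups, 1 with lane, and 9 to 63 with a mouse left out. In STAM_treated against STAM_vehicle 1 was called, and 2, 17 and 14 in that order of the first 3 alternatives, 0 with total counts, 2 without a filter, 0 with 2 groups, 2 with 2 groups without STAM_treated mouse 3, 0 with lane, and 0 to 7 with a mouse left out. In STAM_treated against Naive_vehicle 42 were called, 71 with DESeq2 without STAM_treated mouse 3 and 76 with voom. The number was 17 with 2 groups, 3 with lane, and 17 to 67 with a mouse left out. With DESeq2 and voom the calls over all genes rose too, as given below.

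The replicate block, whose numbers do not pair the mice, called 10, 0 and 26 genes of the wider list and 0 of the 8 genes in STAM_treated against Naive_vehicle. With the block and without STAM_treated mouse 3, 6, 1 and 0 of the 8 genes were called, and 58 and 5 of the list in the first 2 comparisons.

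Signs turned for 5 of the 8 genes. Pdk4 in STAM_vehicle against Naive_vehicle was 0.0026 with voom, 0.20 with total counts, 0.68 with lane and -0.58 to 0.092 with a mouse left out. In STAM_treated against STAM_vehicle without STAM_treated mouse 3, Cpt1a was 0.044 (DESeq2 0.048, 0.093 with the block, 0.034 with 2 groups; voom with 12 mice 0.0083), Hadha 0.18 (DESeq2 0.18, 0.22 with the block, 0.17 with 2 groups; with 12 mice voom 0.12, total counts 0.0013) and Acadm 0.18 (DESeq2 0.18, 0.17 with the block, 0.17 with 2 groups; with 12 mice voom 0.10, RLE 0.00066, upper-quartile 0.015, total counts 0.029, 2 groups 0.005). With a mouse left out Cpt1a ran from -0.16 to 0.044, Hadha from -0.18 to 0.18, Acadm from -0.23 to 0.18 and Cyp4a10 from -0.22 to 0.42, and Cyp4a10 was -0.18 with lane.

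Over all genes the counts of calls were 1195, 59 and 2546 in the order of comparisons used above. They were 3779 and 403 without STAM_treated mouse 3 in the first 2, 3879, 8 and 1262 with 2 groups, 37, 0 and 85 with lane, and 742, 10 and 1573 with the replicate block. DESeq2 called 1910, 268 and 3427 genes, DESeq2 without STAM_treated mouse 3 called 4369, 1287 and 4092, and voom 5830, 1199 and 4867. The median log2 fold change of all genes was 0.28, 0.13 and 0.46 with total counts, against 0.0089, 0.024 and 0.061 with TMM. The cause of these changes was not tested.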
